A study of Saccharomyces cerevisiae with 6 samples.

Results

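The genes for the proteins of the small (40S) subunit of the cytosolic ribosome were examined in RNA-seq data of haploid Saccharomyces cerevisiae. They were chosen by name, as every listed gene whose symbol is RPS followed by a digit, which gave 56 of the 6442 genes listed. Of these 56 genes, 48 form 24 pairs of paralogs named A and B, and 8 are single copy, so that together they encode 32 proteins. The libraries are labelled H0 and S3, with 3 libraries each, and the labels describe all 6 as yeast with synV, the synthetic chromosome V, and a rearranged genome, from 12 h of flask culture at 30 °C. The study describes transcriptomes of yJBH000, a MATa haploid synV strain with the carotenoid genes crtE, crtI and crtYB and a LEU2 marker integrated at CAN1, and of yJBH012, a single clone obtained from it by SCRaMbLE, the Cre-driven rearrangement of the synthetic chromosome. Per the study's methods, cells were taken in the exponential phase from YPD, a rich glucose medium. The labels do not say which name is which strain, and the groups are therefore called H0 and S3 here. The study gives VAC8 and YEL014C as deleted in yJBH012. VAC8 had 2216 to 2532 counts in the H0 libraries and 0, 0 and 1 in the S3 libraries, and YEL014C had 82 to 84 and 0. H0 libraries held 23340054 to 25333938 counts and S3 libraries 17675299 to 21568860. H0 replicate 1 stood apart from replicates 2 and 3 of its group, with chi-square values per degree of freedom, over all genes, of 84.1 and 86.5 against 7.21 between the other two. Nothing in the labels says that the 3 libraries of a group are separate cultures, so p-values measure only the spread between these libraries. In bulk RNA a changed number of cells of a kind and a changed amount of RNA per cell cannot be told apart.

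The small subunit binds the mRNA and reads its codons against tRNA. Its head and its body meet at the channel through which the mRNA runs, and each protein is present as a single molecule in the particle. Most of its genes in S. cerevisiae were kept in duplicate after an ancient whole-genome duplication, and both copies of a pair encode the same or nearly the same protein. Transcription of ribosomal protein genes takes a large part of the RNA polymerase II activity of a growing yeast cell and follows its growth rate, with Rap1, Fhl1, Ifh1 and Sfp1 among the factors at their promoters.

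Paralogs can be compared only as far as reads tell them apart. The exons of the 24 pairs were 84.3% to 99.2% identical in the R64 reference. In 20 pairs no stretch of 100 bases was the same in both genes, or in any other gene. Among the other pairs were RPS4, RPS6 and RPS24, in which the longest identical run measured 158, 311 and 152 bases. In RPS6, 53.4% of all 100-base stretches occurred in both genes. How reads that match several genes were counted is not given in the sources used here, so the values of single genes in such pairs are uncertain. RPS24A and RPS26B lie on chromosome V, so their reference letters need not be those of the synthetic chromosome. No member's exons overlapped an exon of another annotated gene. Of the 3 pairs whose ratio changed most, RPS22 and RPS27 shared no 50-base stretch, with 41 differences in 393 aligned bases and 39 in 249. RPS30 was less separable, with 9 differences in 192 bases, an identical run of 74 bases and 17.5% of its 50-base stretches in both genes, the highest share among the 20 pairs. The following 60-base windows of these pairs are those with the most differences inside a single exon, written from the coding strand, with capitals for the bases at which the paralogs differ. RPS22 has 11 differences in its window, RPS27 16 and RPS30 5.
RPS22A (chrX:75201-75260, minus strand): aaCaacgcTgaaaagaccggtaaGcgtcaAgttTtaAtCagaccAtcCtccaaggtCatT
RPS22B (chrXII:856484-856543, plus strand): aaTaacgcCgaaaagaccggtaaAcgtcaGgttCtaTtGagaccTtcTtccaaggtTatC
RPS27A (chrXI:159093-159152, plus strand): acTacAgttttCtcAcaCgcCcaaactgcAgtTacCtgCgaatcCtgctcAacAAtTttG
RPS27B (chrVIII:147931-147990, minus strand): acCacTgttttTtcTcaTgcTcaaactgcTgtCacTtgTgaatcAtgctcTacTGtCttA
RPS30A (chrXII:712639-712698, minus strand): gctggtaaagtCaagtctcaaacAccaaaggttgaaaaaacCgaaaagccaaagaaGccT
RPS30B (chrXV:678293-678352, minus strand): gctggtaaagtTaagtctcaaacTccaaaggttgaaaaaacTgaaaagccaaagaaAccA
Coordinates and letters are those of the R64 reference. The files name no build, but the gene length implied by count and FPKM equalled the R64 exon length in 99.9% of the 6237 genes with counts and an exon annotation.

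All 56 small subunit genes were higher in S3, and none was lower. The log2 fold change of S3 over H0 ran from 0.48 for RPS19A to 3.88 for RPS22B with a median of 1.20, which lay 1.21 above the median of all 5904 genes tested. The calls come from the quasi-likelihood test of edgeR, with p-values adjusted over all genes by the Benjamini-Hochberg method and a threshold of 0.05. By the same rule 34.2% of all genes were called higher and 36.2% lower. As all 56 fold changes were above 0, none could be called lower without adjustment either. DESeq2 called 56 higher and 0 lower. In 38 of the 56 the rise was also more than 2-fold, against 10.7% of all genes. For all 56 every S3 library lay above every H0 library, against 36.9% of all genes. These 56 genes together took 2.74%, 3.26% and 3.30% of the counts in the 3 H0 libraries and 5.70%, 5.65% and 5.55% in the 3 S3 libraries. The groups did not overlap, and H0 replicate 1 had the lowest share. The difference of the means was 2.54 percentage points (two-sided exact permutation test, p = 0.1, the smallest value that 3 against 3 allows). Without H0 replicate 1 the difference was 2.35 points, the median rise relative to all genes 1.11, and 32 genes were more than 2-fold higher.

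How far a rise exceeded 2-fold depended on the scaling. Levels are given as CPM, counts scaled to a common library total after adjustment of the library sizes by edgeR's TMM factors. With total counts alone the median of all genes moved to -0.35. Of the 56 genes 54 were called higher, 19 of them more than 2-fold. The exceptions were RPS19A, at 0.15 (adjusted p = 0.201), and RPS28A, at 0.20 (adjusted p = 0.0968). The shares of all genes called with total counts are not given here, and the 34.2% and 10.7% above hold for TMM factors only. Counted relative to the median of all genes, which takes out a shift common to all genes, 39 of the 56 exceeded 2-fold with either scaling.

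**Figure D1:**
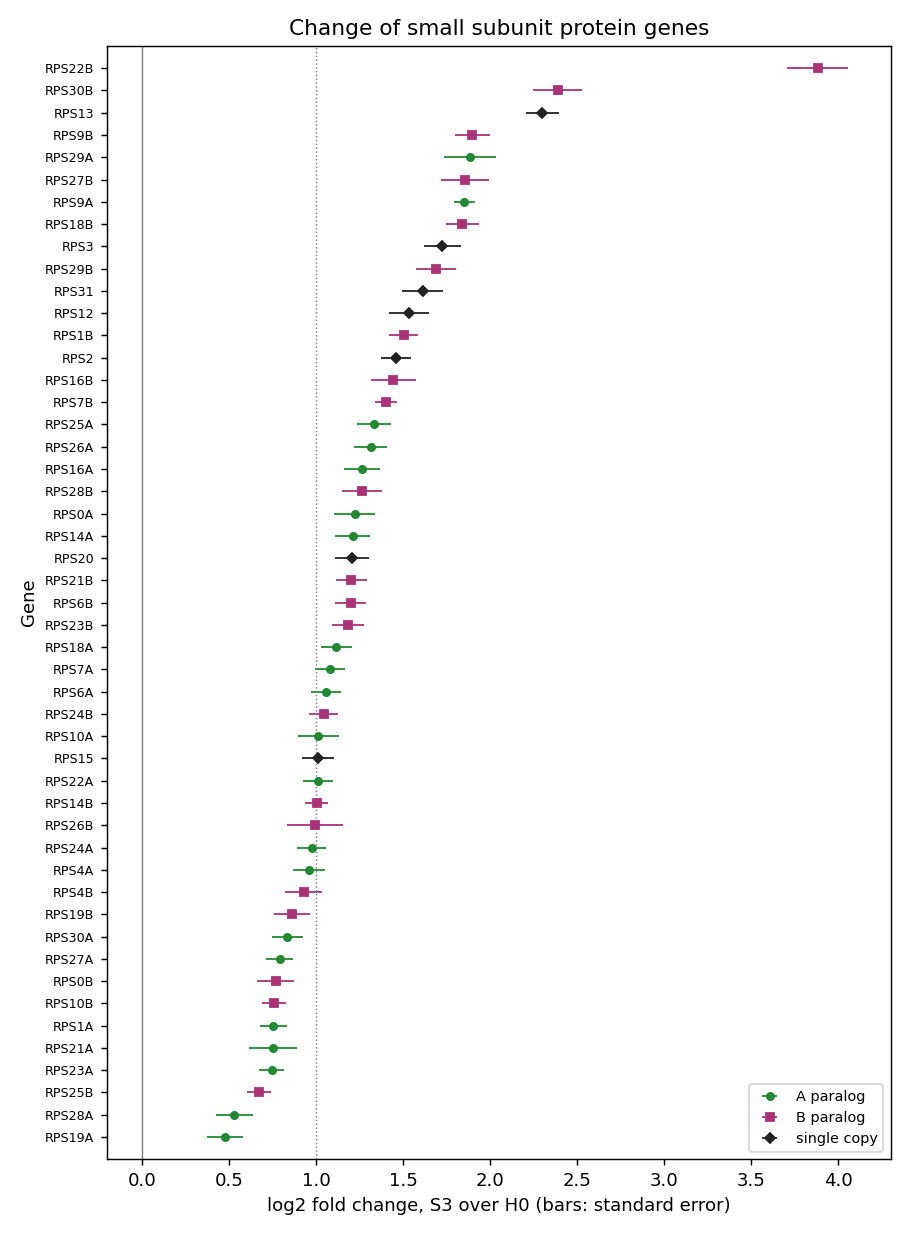
Log2 fold change of S3 over H0 on the x axis for 49 of the 56 small subunit protein genes on the y axis, ordered by size, with standard errors as bars. Green circles are A paralogs, purple squares B paralogs and black diamonds single-copy genes. All lie above 0, the dotted line marks 2-fold, and RPS22B at 3.88 stands apart from the next gene, RPS30B at 2.39.

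The 8 single-copy genes encode proteins of the head and the body of the particle, and all 8 rose more than 2-fold with TMM factors. With total counts alone RPS15 and RPS20 were among those that stayed under 2-fold, at 0.68 and 0.87 on the log2 scale. RPS13 (YDR064W), whose protein lies in the body at the interface with the large subunit, rose most. Its level was 333, 363 and 408 CPM in H0 and 1897, 1733 and 1810 CPM in S3, a log2 fold change of 2.30 (SE 0.10, adjusted p = 2.87e-06). The S3 libraries were thus 4.93-fold above the H0 libraries in the fit. RPS3, a head protein at the entry of the mRNA channel, had 451, 572 and 575 CPM in H0 and 1807, 1742 and 1743 CPM in S3, a rise of 1.73 on the log2 scale. RPS31, which is made as a fusion of ubiquitin and the ribosomal protein, rose by 1.61, from a mean of 1118 to 3421 CPM. RPS12, a protein of the beak of the head, rose by 1.53. RPS2, which faces RPS3 at the channel entry, rose by 1.46. RPS20 rose by 1.21 and RPS15 by 1.01, both head proteins, and without H0 replicate 1 RPS15 stood at 0.94. ASC1, the yeast counterpart of the signalling scaffold RACK1, sits on the head but does not carry an RPS name and was not among the 56. It rose from 301, 338 and 361 CPM to 2188, 2083 and 2087 CPM, a rise of 2.67 on the log2 scale (SE 0.09), above every small subunit gene except RPS22B.

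At the other end stood genes whose partner rose more. RPS19A (YOL121C) had 501, 630 and 641 CPM in H0 and 810, 851 and 808 CPM in S3, a rise of 0.48 on the log2 scale (SE 0.10, adjusted p = 0.00418). Its paralog RPS19B rose by 0.86. The human counterpart of RPS19 is the gene most often mutated in Diamond-Blackfan anaemia. RPS28A rose by 0.53 and its paralog RPS28B by 1.26, and RPS25B by 0.68 and RPS25A by 1.33. For RPS28A, whose exon is 204 bases long, the value fell to 0.04 (adjusted p = 0.708) when the trend of fold change with gene length was removed. Other short genes also moved but were still called higher. The values were 0.32 for RPS30A (adjusted p = 0.0106), 0.40 for RPS27A, 0.41 for RPS25B and 0.78 for RPS28B. They stood in place of 0.84, 0.79, 0.68 and 1.26. RPS30B went from 2.39 to 1.87, below the 2.19 of RPS13 with the trend removed, and RPS27B from 1.86 to 1.46. The 36 genes with an intron in the annotation had a median of 1.10 and the 20 without an intron 1.28. Grouped by place in the particle, the 22 genes of head proteins had a median of 1.26 and a range from 0.48 to 1.88. The 34 genes of body and platform proteins had a median of 1.13 and a range from 0.71 to 3.88. These differences between groups of members were not tested.

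Paralogs of a pair contributed unequally in both groups of libraries. To compare both genes of a pair per length, their FPKM values were used, and the share of the A gene was taken as a percentage of A and B together. In H0 the A gene was the larger in 18 of 24 pairs and in S3 in 16. In 7 pairs the H0 share lay between 40% and 60%, and in 10 pairs the S3 share did. The most uneven pairs in H0 were RPS22, at 94.8% ± 0.77 A (SD, n = 3), RPS14, at 93.1% ± 0.40, and RPS28, at 87.8% ± 0.44. RPS9 was uneven in favour of B, with an A share of 14.0% ± 1.5. Among the most even pairs were RPS27, at 54.5% ± 3.0, and RPS23, at 55.0% ± 1.1.

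**Figure D2:**
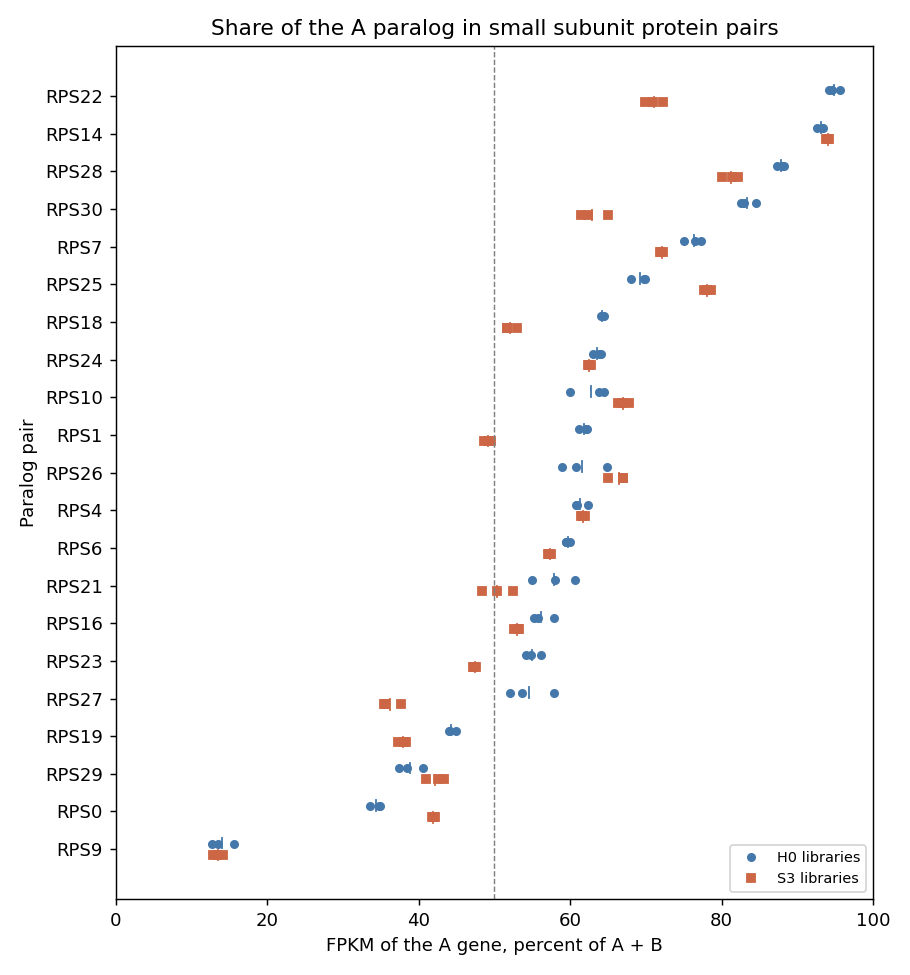
Share of the A gene in the FPKM of A and B together, in percent on the x axis, for 21 of the 24 paralog pairs on the y axis ordered by their H0 share. Blue circles are the 3 H0 libraries, orange squares the 3 S3 libraries, short bars the means and the dashed line 50%. RPS22, RPS30 and RPS27 moved furthest toward B, with changes of the A share of -23.7, -20.4 and -18.3 points, while the points of RPS4 and RPS9 overlap.

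The ratio of A to B differed between S3 and H0 in 21 of the 24 pairs, 8 times in favour of A and 13 times in favour of B. This was tested with limma on the log2 ratio of the counts in each library, which needs no scaling between libraries. P-values were adjusted by the Benjamini-Hochberg method over all 62 gene pairs of the table whose symbols differ only in a final A or B, of which 90.3% were called in either direction. A changed ratio was therefore as common among the small subunit pairs as among the pairs as a whole. The absolute change of the log2 ratio had a median of 0.44 in the 24 pairs and 0.45 in the other 38 pairs, most of them large subunit genes. It was called and exceeded 0.5 in 9 of the 24 pairs, against 40.3% of all 62 pairs. In 22 of the 24 pairs the S3 libraries lay wholly to one side of the H0 libraries, against 93.5% of all pairs. With edgeR's diffSpliceDGE in place of limma, 15 of the 24 pairs were called. The share of all 62 pairs called by diffSpliceDGE is not given here, and the 90.3% holds for limma only.

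RPS22 had the largest change of the 62 pairs. Its protein binds the 18S rRNA in the body of the subunit. RPS22B (YLR367W, chrXII:856442-857317) had 17.0, 25.5 and 27.7 CPM in H0 and 331, 346 and 356 CPM in S3. Every S3 library lay more than 10-fold above every H0 library, and the fitted log2 difference was 3.88 (SE 0.17, adjusted p = 3.68e-06). RPS22A (YJL190C, chrX:74910-75302) had 369, 448 and 440 CPM in H0 and 864, 845 and 828 CPM in S3, a log2 fold change of 1.01. The A share was 95.6%, 94.6% and 94.1% in H0 and 72.3%, 70.9% and 69.9% in S3. RPS22A thus stayed the larger gene in every library while the B gene went from 5.2% to 28.9% of the pair. The log2 ratio of A to B moved by -2.89 (SE 0.11, adjusted p = 1.66e-06 in limma). An intron of RPS22B holds the gene of SNR44, a small nucleolar RNA, which the files list on its own. SNR44 had 28, 35 and 37 counts in H0 and 205, 263 and 245 in S3, a rise of 3.49 on the log2 scale (SE 0.18). It is a small count, and reads of the small RNA cannot be told apart from those of an unspliced host transcript.

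RPS30 came next among the small subunit pairs. RPS30B (YOR182C, chrXV:678191-678793) had 90.6, 127 and 121 CPM in H0 and 540, 597 and 639 CPM in S3, a rise of 2.39 on the log2 scale (SE 0.14). RPS30A (YLR287C-A, chrXII:712537-713158) rose by 0.84, and its share fell from 83.3% ± 1.0 to 62.9% ± 1.9 (SD, n = 3). RPS30 in mammals is made as a fusion to a ubiquitin-like protein, which the yeast genes lack. RPS27, a zinc-binding protein, changed its larger gene. RPS27B (YHR021C, chrVIII:147871-148669) had 154, 221 and 216 CPM in H0 and 688, 738 and 712 CPM in S3, against 211, 240 and 249 and then 417, 406 and 390 CPM for RPS27A (YKL156W, chrXI:158613-159212). The A share fell from 54.5% ± 3.0 to 36.2% ± 1.3, and the ratio moved by -1.08 (SE 0.09) on the log2 scale. In H0 replicate 1 the A share was 57.9%, the highest of its group, and without that library the ratio of no leading pair changed its call.

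**Figure D3:**
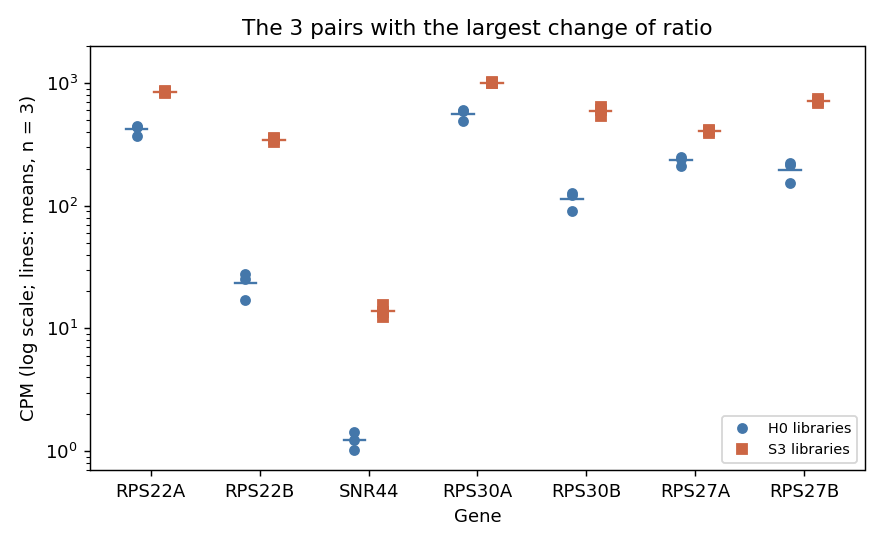
CPM on a logarithmic y axis in each library for the paralogs of RPS22, RPS30 and RPS27 and for SNR44, the small nucleolar RNA in an intron of RPS22B. Blue circles are H0 libraries, orange squares S3 libraries and lines the means of 3. RPS22B and SNR44 show the widest gaps, with log2 fold changes of 3.88 and 3.49.

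Among the other pairs that moved toward B, RPS1, a protein at the exit of the mRNA channel, went from 61.8% ± 0.58 to 49.1% ± 0.48 A and thereby changed its larger gene. RPS1A rose by 0.76, and RPS1B went from 445, 508 and 527 CPM in H0 to 1420, 1382 and 1395 CPM in S3. RPS18, a head protein that contacts the large subunit, went from 64.2% ± 0.22 to 52.1% ± 0.77. RPS28 went from 87.8% to 81.2% A. RPS28B is known for an autoregulation in which its protein binds the 3' end of its own mRNA and recruits the decapping factor Edc3. RPS23, a protein of the decoding centre, went from 55.0% to 47.4% A and also changed its larger gene, with rises of 0.75 for RPS23A and 1.19 for RPS23B. The A share changed by -7.5 points in RPS21, a small protein beside RPS0, and by -6.4 points in RPS19. It changed by -4.2 points in RPS7, a body protein, and by -3.2 in RPS16, a head protein whose tail reaches the tRNA. RPS6 also moved, by -2.4 points, but lies among the pairs whose reads are hard to separate.

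RPS25 moved toward A, from 69.2% ± 1.1 to 78.1% ± 0.44. RPS25 is a head protein that is needed for initiation on some viral internal entry sites. RPS0 and RPS26, both near the channel exit, moved toward A by 7.5 and 4.9 points, and the head proteins RPS10 and RPS29 by 4.2 and 3.4 points. In RPS26 the A share was 64.8%, 60.7% and 58.9% in H0 and 65.0%, 67.0% and 67.0% in S3. H0 replicate 1 thus lay beside S3 replicate 1 in that pair. RPS14 moved by 0.9 points, with rises of 1.21 for RPS14A and 1.01 for RPS14B. The change of RPS14, a platform protein that represses the splicing of RPS14B, was small on the log2 scale as well, at 0.21, and was not called by diffSpliceDGE (adjusted p = 0.0607). Of the 21 pairs with a changed ratio, 16 moved toward the gene that was the smaller in H0 and 5 toward the larger, a count in which the H0 values enter both sides and which is given without a test.

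In RPS4, RPS9 and RPS24 no difference of the ratio was called. The change of the log2 ratio in RPS4 was 0.02 with a 95% interval from -0.08 to 0.12, and in RPS24 it was -0.07, from -0.16 to 0.02. Both belong to the pairs with long identical stretches. RPS9, a protein at the channel entry with a part in decoding accuracy, does not. Its A share was 14.0% ± 1.5 in H0 and 13.5% ± 0.63 in S3, and the change of its ratio was -0.05, with an interval from -0.27 to 0.17. Both genes rose by like amounts, by 1.85 for RPS9A and 1.90 for RPS9B. Leaving out the 4 pairs that share a 100-base stretch, a choice made after the data were seen, 19 of the 20 remaining pairs had a changed ratio, RPS9 being the exception.

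Summed over the genes of a protein, the RNA levels were more alike than those of single genes. Part of this follows from the sum itself, which merges the low value of a minor paralog with that of its partner. Over the 32 proteins the SD of log2 FPKM was between 0.61 and 0.63 in the H0 libraries and 0.48 and 0.49 in the S3 libraries. Over the 56 genes it was 1.07 to 1.08 in H0 and 0.90 in each S3 library. The highest summed level was 6.19 to 6.21 times the lowest in the H0 libraries and 3.28 to 3.81 times in the S3 libraries, so that the proteins lay closer together in every S3 library than in any H0 library. Every protein was higher in S3 also on this scale, which is not adjusted for the shift of all genes, with differences of the mean log2 FPKM from 0.32 to 1.97. In H0 the lowest levels were those of RPS3, at 827 ± 101 FPKM, RPS13, at 906 ± 82.6, and RPS9, at 983 ± 91.0 (SD, n = 3). These rose to 2172 ± 46.0, 3541 ± 147 and 2892 ± 25.9 FPKM. The highest in H0 was RPS28, a short protein near the channel exit, at 5124 ± 629 FPKM, and it rose least, to 6352 ± 105. The H0 level enters both the order and the difference, and the values are given as a description. RPS22, although its B gene rose most, was among the 5 proteins with the lowest summed levels in H0, with 1263 ± 126 FPKM in H0 and 2697 ± 27.2 in S3.

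**Figure D4:**
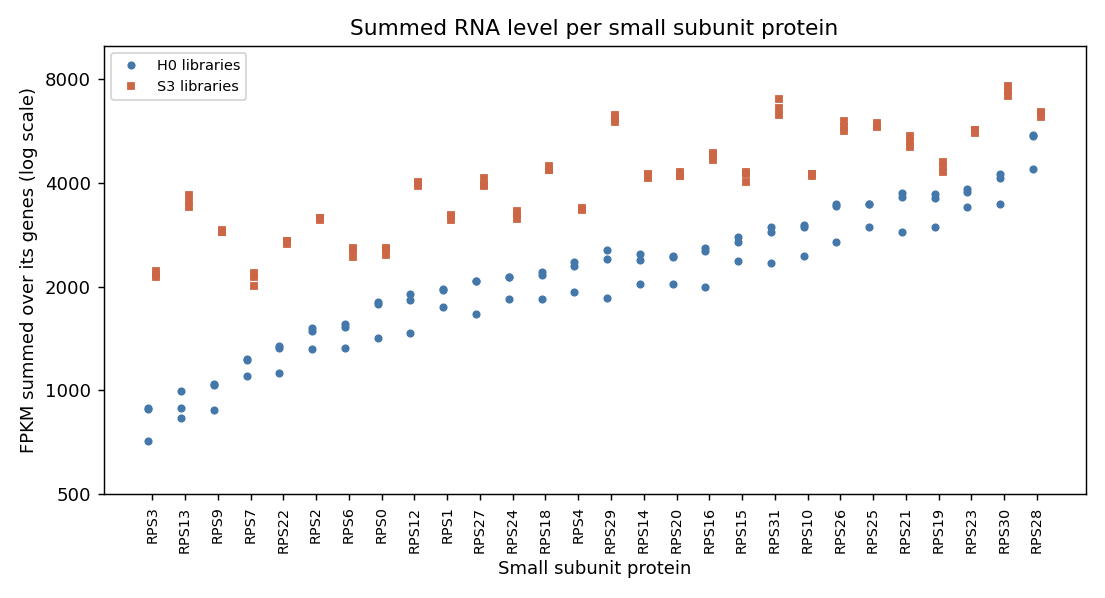
FPKM summed over the genes of 28 of the 32 small subunit proteins, on a logarithmic y axis, with the proteins ordered on the x axis by their H0 mean. Blue circles are the 3 H0 libraries and orange squares the 3 S3 libraries. S3 lies above H0 for every protein drawn, and the range narrows from about 6.19-fold to 3.28-fold between the first library of each group.

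The sequence upstream of the genes was searched on both strands for short motifs, in the 600 bases before the start codon of each protein-coding gene of R64. A core of the Rap1 motif, ACCCNNACA, occurred upstream of 18 of the 56 small subunit genes (32.1%), of 48.1% of the large subunit genes and of 6.5% of all genes. The ribosome biogenesis elements RRPE (AAAAATTTT) and PAC (GATGAG) occurred upstream of 3 and 14 of the 56 genes, beside 10.2% and 32.1% of all genes. The Abf1 motif was found upstream of 27 of the 56 genes (48.2%), beside 51.7% of all genes. The motifs were counted without regard to overlaps between them. Genes with the Rap1 core had a median log2 fold change of 1.07, ranging from 0.48 to 2.30, and the 38 without it had 1.21, ranging from 0.53 to 3.88. The core thus stood upstream of RPS13, the single-copy gene with the largest rise, and of RPS19A, the member with the smallest. The following stretches of 60 bases, on the strand of the gene, show the match in the single-copy genes RPS13 and RPS2 and in RPS19A, with the match in capitals. Counted from the start codon, it begins at position -230 in RPS13, -388 in RPS2 and -246 in RPS19A.
RPS13 (chrIV:579203-579262): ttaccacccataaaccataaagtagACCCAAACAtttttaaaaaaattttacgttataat
RPS2 (chrVII:277204-277263): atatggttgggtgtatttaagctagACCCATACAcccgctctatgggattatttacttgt
RPS19A (chrXV:93062-93121, minus strand): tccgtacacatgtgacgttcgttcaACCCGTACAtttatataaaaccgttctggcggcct
A match is a description of the letters and not of a bound site.

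Other genes of the ribosome showed the following. Of 81 genes for large subunit proteins, 79 were called higher and 0 lower, with a median 1.26 above all genes, beside 1.21 for the small subunit. The counts that follow stand beside the 34.2% of all genes called higher and 36.2% called lower. Of 71 assembly factors of the small subunit, 26 were higher, a share near that of all genes. Lower were 10 of the 71, a smaller share than among all genes. Their median was 0.31 relative to all genes. UTP20, a large component of the early pre-ribosome, rose most among them, by 1.94 (SE 0.13), followed by UTP23 at 1.76 and UTP10 at 1.41. Of 16 regulators of ribosomal protein and ribosome biogenesis genes, 7 were higher and 6 lower. DOT6, a repressor of ribosome biogenesis genes, changed most, with a rise of 1.43. IFH1, a coactivator of ribosomal protein genes, stood at -0.97 and SCH9, a kinase of the TOR pathway, at -0.82. Their groups did not overlap, but of all genes 36.9% lay wholly higher in S3 and 38.6% wholly lower. Of the other promoter factors named above, SFP1, RAP1 and FHL1 were called higher, by 0.78, 0.41 and 0.35. Of 34 proteins of the mitochondrial small subunit, 6 were higher and 16 lower, with a median of -0.01 relative to all genes. Of 24 general stress genes 17 were higher and 2 lower, with a median 1.05 above all genes. HSP12, a small heat shock gene, stood at 563 CPM in H0 replicate 1 against 215 and 214 in the other H0 libraries. H0 replicate 1 was also the library with the lowest share of small subunit counts. In the S3 libraries HSP12 had 801, 1062 and 939 CPM. Between the groups HSP12 was thus higher in S3. It was chosen after its values were seen. In its list GLC3 rose most, by 2.89, and of the 2 genes called lower SSA3 fell most, to -1.27. The part of the genes of these other lists in the rise of the small subunit genes was not tested. As a check of the cell type, STE2, the a-cell pheromone receptor gene, had 539 to 646 CPM in all 6 libraries and STE3, its alpha-cell counterpart, 8.16 to 11.5 CPM. Not every marker separated in this way. ASG7, also a-specific, had 8.82 to 11.8 CPM, and SAG1, also alpha-specific, 43.4 to 56.6 CPM. The remaining a-specific genes had at least 54.4 CPM in every library and the remaining alpha-specific genes at most 12.1 CPM. Of 7 a-specific genes 2 were higher and 3 lower, and of 4 alpha-specific genes 0 and 1.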

How the data were processed

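RNA-seq was available for 6 libraries, 3 labelled H0 and 3 labelled S3. The authors deposited raw read counts per gene, and the submitters' processing notes name HTSeq 0.6.1 and DESeq 1.18.0. FPKM values, which the authors deposited beside the counts, are counts divided by gene length and by a library total. The aligner, genome build, strand setting and treatment of reads with several matches are not given in the sources used here. Of 6442 NCBI gene identifiers, 6436 matched the R64 gene table. Count and FPKM gave the same gene length in all libraries within 0.5 bases.

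Counts were analysed with edgeR 4.0.16 (filterByExpr, TMM factors, glmQLFit, glmQLFTest, Benjamini-Hochberg over 5904 genes) in R 4.3.3. Paralog ratios, log2((A + 0.5)/(B + 0.5)), were fitted with limma 3.58.1 (lmFit, eBayes). Standard errors come from these fits. Exons and upstream regions were read from RefSeq R64 with Biopython 1.88. Named are the single-copy genes, the 5 pairs with the largest change of ratio, the 3 most even and 3 most uneven pairs in H0, the 3 largest and 3 smallest changes, ASC1, and of other lists at most 3 genes with the largest changes past the test. Genes of other pairs and lists named beyond these were chosen after their values were seen. Counts and medians cover all members, but some members are not reported here by name or drawn. The members and lists were chosen with earlier results of these data known. The procedure was run on simulated counts, drawn independently for each library, and the outcome is not reported here. No library was simulated to stand apart as H0 replicate 1 did. Alternatives were other scalings and filters, DESeq2 1.42.0, limma on log2(FPKM + 1) and log2(FPKM + 0.1), diffSpliceDGE, a replicate block, removal of the gene length trend (loess span 0.4) and each library left out in turn.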

Additional observations from a re-analysis of the deposited data

How the results depend on the processing

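Under the alternatives run, 54 to 56 of the 56 small subunit genes were called higher and 0 lower. The shares of all genes called under each alternative are not given here, so these counts have no background of their own. The median rise relative to all genes lay between 1.11 and 1.26. More than 2-fold higher were 19 of the 56 with total counts, with log2(FPKM + 1) and with log2(FPKM + 0.1), against 38 with TMM factors. Relative to the median of all genes, which takes out a shift common to all genes, these counts were 39, 38 and 39. With single libraries left out the count ran from 32, without H0 replicate 1, to 42 and the number of pairs with a changed ratio from 19 to 21. Deviations of same-numbered libraries from their group means correlated by -0.01, 0.08 and 0.08, and those of differently numbered libraries by -0.11 to 0.04. With so few libraries in a group, these values cannot decide whether the replicate numbers pair the libraries. With the replicate block 56 genes were higher, 39 more than 2-fold, and 21 pairs were changed. With the block and the gene length trend removed 55 were higher and 31 more than 2-fold. With the gene length trend alone removed 55 were higher and 30 more than 2-fold. The share of counts rose by 2.35 to 2.64 points with each library left out, and by 4.37 points when taken over the summed FPKM. The lowest count of a member in any library was 461, for RPS22B.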
